A study of Homo sapiens with 6 samples.

Results

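The MYC, MAX and MXD network was followed through 10 of its genes, which are MYC, MAX, MXD1, MXD3, MXD4, MXI1, MNT, MGA, MLX and MLXIP. A gene was taken when its name in the deposited expression files was 1 of these 10 names, and all 10 were found among the 58735 genes of the table. MDA-MB-231 cells, a human triple-negative breast cancer line labelled wild type, were given vehicle or SCH at 100 mg/l for 24 h, with 3 samples labelled as biological repeats in each group. SCH is the freeze-dried water extract of the herb Salvia chinensis Benth. The labels give RPMI-1640 with serum as the medium where the study's methods give DMEM. All samples come from this 1 line, so the p-values measure the spread between its cultures. The depth, as the sum of a sample's counts over all genes, was 20291379, 18714240 and 18334857 with vehicle and 16836369, 17979434 and 18414924 with SCH.

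MYC is a transcription factor that binds DNA as a pair with MAX, mostly at the E-box CACGTG, and raises genes needed for growth, such as those for ribosomes, nucleotides and glycolysis. MXD1, MXD3, MXD4, MXI1 and MNT also pair with MAX at the same motif but recruit the SIN3 and histone deacetylase corepressor, and several of them are best known in cells that leave the cell cycle. MLX forms a parallel branch with the glucose-sensing partner MLXIP (MondoA), and it can also pair with MXD1, MXD4 and MNT. MGA is a large MAX partner that belongs to a Polycomb repressive complex. MYC is often abundant in triple-negative breast cancer.

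Since the network acts through CACGTG, this motif was searched in the RefSeq promoter windows of GRCh38.p14, from 250 bases before to 50 bases after a start site. The motif reads the same on both strands. There were 14 windows for 9 of the 10 genes, all but MYC, and the motif was present in those of MXD4, MNT and MLX. It was present in 7.26% of all 35116 windows. By gene, it was present in 12.5% of the tested genes with a window, in 9.99% of those raised and in 16.0% of those lowered by SCH. The windows that carry it are shown 5′ to 3′ with the motif in capitals, because these 3 genes are network members that themselves hold the network's motif. A window of ARRDC4, a known target of MLXIP and MLX, is added for the branch described further on. The first base of the motif lies 238 bases before the start in MXD4 (chr4:2262060-2262359, minus strand), 193 in MNT (chr17:2401011-2401310, minus strand), 50 in MLX (chr17:42566850-42567149, plus strand) and 210 in ARRDC4 (chr15:97960453-97960752, plus strand). A match is a description of letters in the window, and binding was not measured.
MXD4: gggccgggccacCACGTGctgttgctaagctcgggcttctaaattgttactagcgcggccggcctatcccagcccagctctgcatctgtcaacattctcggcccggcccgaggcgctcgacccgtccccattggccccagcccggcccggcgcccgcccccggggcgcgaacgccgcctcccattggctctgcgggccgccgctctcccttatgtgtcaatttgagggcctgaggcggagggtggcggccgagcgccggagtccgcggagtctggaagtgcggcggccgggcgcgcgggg
MNT: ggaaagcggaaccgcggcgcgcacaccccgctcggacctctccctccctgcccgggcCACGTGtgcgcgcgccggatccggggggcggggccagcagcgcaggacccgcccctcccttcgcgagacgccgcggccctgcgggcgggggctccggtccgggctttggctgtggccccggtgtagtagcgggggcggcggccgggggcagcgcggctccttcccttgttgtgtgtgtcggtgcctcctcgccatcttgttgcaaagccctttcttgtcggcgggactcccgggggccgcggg
MLX: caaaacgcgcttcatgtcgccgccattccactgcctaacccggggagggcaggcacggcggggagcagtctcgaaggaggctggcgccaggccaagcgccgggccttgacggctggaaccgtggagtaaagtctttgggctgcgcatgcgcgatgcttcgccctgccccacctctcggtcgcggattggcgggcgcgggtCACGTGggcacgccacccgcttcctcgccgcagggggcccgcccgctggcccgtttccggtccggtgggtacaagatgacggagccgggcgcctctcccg
ARRDC4: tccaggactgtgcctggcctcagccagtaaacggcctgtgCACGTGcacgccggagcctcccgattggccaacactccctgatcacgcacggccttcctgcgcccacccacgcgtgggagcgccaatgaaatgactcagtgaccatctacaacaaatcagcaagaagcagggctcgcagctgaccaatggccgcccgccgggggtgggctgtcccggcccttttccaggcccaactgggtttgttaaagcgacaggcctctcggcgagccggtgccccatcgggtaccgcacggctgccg

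SCH lowered MYC and raised its MAX-binding antagonists MXD4, MXD1, MNT and MXI1, while MAX itself did not pass the test. The MLX branch was split, with MLX lowered and MLXIP raised. In all, 7 of the 10 genes changed, 5 of them raised and 2 lowered, by edgeR's quasi-likelihood test with Benjamini-Hochberg adjustment over 14736 tested genes. The background was high, since 58.7% of all tested genes changed, 29.3% raised and 29.4% lowered. With library size scaling in place of the TMM factors, all calls were split into 5519 raised and 3295 lowered in place of 4318 and 4332, and those of the members into 6 and 2. Without vehicle replicate 1 the members were split into 3 raised and 2 lowered. The same 7 genes had groups that did not overlap, as did 62.4% of all tested genes. The share of members that changed was therefore near that of all genes, and the sizes and directions below carry the description. The median log2 fold change was 0.11 over the 10 genes and -0.0034 over all tested genes. With library size scaling these medians were 0.21 and 0.099. With upper quartile scaling that of the 10 genes was 0.078. With 3 samples against 3, an exact permutation test of a single gene cannot give a p under 0.1. RNA was measured in bulk, so fewer cells with a transcript and less of it per cell cannot be told apart.

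**Figure D1:**
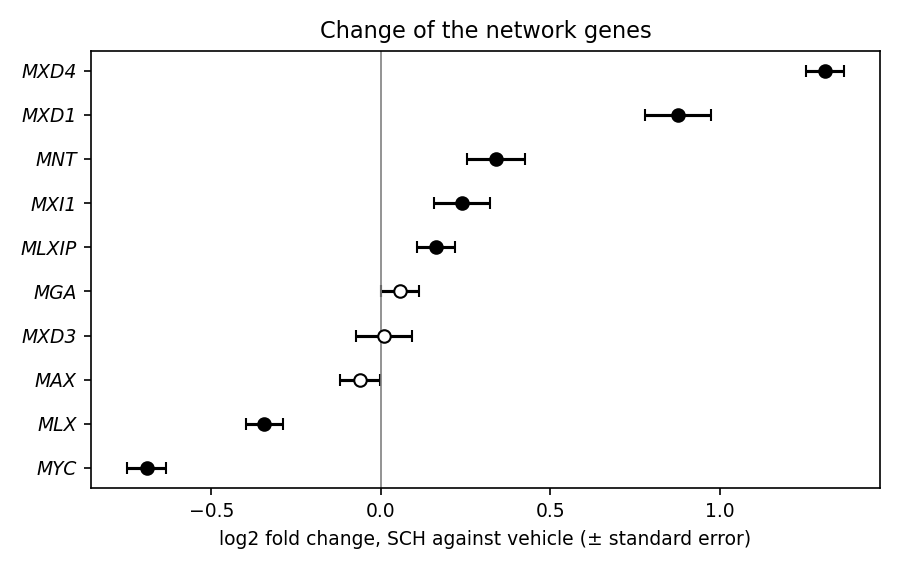
Log2 fold change of each network gene, SCH against vehicle (edgeR, 3 samples per group), with bars of 1 standard error. Filled points passed the adjusted threshold of 0.05 and open points did not. The points run from -0.69 for MYC to 1.31 for MXD4.

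Per gene length, MYC (ENSG00000136997, chromosome 8, 127735434 to 127741434, plus strand) was the most abundant member in every sample. Its level in CPM (a count scaled by library size and edgeR's TMM factor) was 243, 244 and 238 with vehicle and 147, 165 and 136 with SCH. All SCH-treated samples lay below all vehicle-treated samples, and the gap was wider than the spread within either group. The log2 fold change was -0.69 (SE 0.057, adjusted p = 4.39e-10, edgeR), which left 0.619 times the vehicle level. It lay between -0.76 and -0.59 over the 15 settings tried. In CPM, which does not divide by gene length, MXD4 lay above MYC in SCH replicate 3, at 141 against 136.

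The other MYC family genes were scarce. MYCN, the neuronal relative, had 0 counts in all 6 samples, and at these depths a count of 0 allows up to 3 counts per sample. MYCL had 12, 8 and 9 counts with vehicle and 40, 39 and 31 with SCH. These groups did not overlap, and the log2 fold change was 1.92 (SE 0.31, adjusted p = 1.42e-05, edgeR). This size depends on the scale, since with limma it was 1.27 on log2(FPKM + 0.1) and 0.33 on log2(FPKM + 1). Its mean level per length nevertheless stayed at 0.0997 FPKM (fragments scaled by gene length and library size) with vehicle and 0.385 with SCH, against 77.9 and 48.5 for MYC.

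MAX (ENSG00000125952, chromosome 14, 65006174 to 65102695, minus strand), the shared partner of MYC and its antagonists, had 54.2, 53.3 and 56.9 CPM with vehicle and 52.7, 51.4 and 53.5 with SCH. The groups overlapped. The log2 fold change of -0.06 (SE 0.060, adjusted p = 0.402, edgeR) did not pass the test, and it turned to 0.042 when the counts were scaled by library size only.

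Among the repressors, MXD4 (ENSG00000123933, chromosome 4, 2247432 to 2262294, minus strand) rose most. It had 58.1, 55.2 and 52.5 CPM with vehicle and 137, 133 and 141 with SCH. The lowest SCH-treated sample was far above the highest vehicle-treated one. On the log2 scale it rose by 1.31 (SE 0.056, adjusted p = 4.49e-15, edgeR), or 2.48-fold, and it lay between 1.21 and 1.41 over the settings tried.

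MXD1 (ENSG00000059728, chromosome 2, 69897688 to 69942945, plus strand), the founding MAX dimerization protein, had 18.1, 15.2 and 20.9 CPM with vehicle and 37.0, 30.7 and 32.0 with SCH. It varied more between replicates than MXD4 did, but its groups were also apart. Its log2 fold change was 0.88 (SE 0.098, adjusted p = 5.75e-08, edgeR), or 1.84-fold.

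MNT, which is expressed in most proliferating cells and tempers MYC there, rose less (ENSG00000070444, chromosome 17, 2384060 to 2401118, minus strand). It had 17.1, 16.0 and 16.84 CPM with vehicle and 22.8, 20.1 and 20.4 with SCH, with no overlap. This was a rise of 0.34 on the log2 scale (SE 0.086, adjusted p = 0.00168, edgeR). Of its exonic bases, 12.2% are shared with the annotated gene AC006435.1 on the other strand. The library kit named in the methods does not mark the strand, so reads from those bases cannot be assigned to 1 of the 2 genes.

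MXI1 (ENSG00000119950, chromosome 10, 110207605 to 110287365, plus strand) had 17.6, 17.7 and 18.5 CPM with vehicle and 21.6, 20.26 and 21.6 with SCH. The groups did not overlap, although the gap was small. Its log2 fold change was 0.24 (SE 0.082, adjusted p = 0.0151, edgeR). Without vehicle replicate 1 it was 0.23 with an adjusted p of 0.0535 in edgeR and no longer passed, and the adjusted p lay between 0.00102 and 0.0535 over the settings.

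MXD3 (ENSG00000213347, chromosome 5, 177301461 to 177312757, minus strand), the family member best known in dividing cells, had between 19.8 and 22.3 CPM with vehicle and between 20.2 and 21.9 with SCH, so the groups overlapped. Its log2 fold change of 0.0097 (SE 0.082, adjusted p = 0.929, edgeR) changed sign under 3 settings. This value is also uncertain because 40.4% of its exonic bases are shared with PRELID1 and RAB24.

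**Figure D2:**
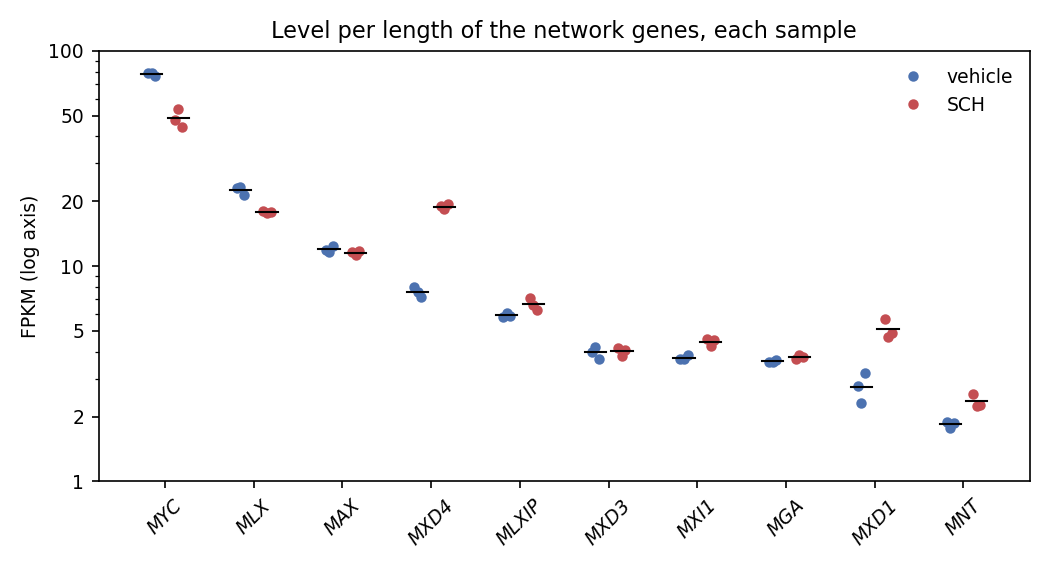
FPKM of each network gene in each sample on a log axis, with vehicle on the left and SCH on the right of each gene and a line at the mean of 3 samples. MYC fell from a mean of 77.9 to 48.5, and MXD4 rose from 7.58 to 18.9, above MAX and near MLX.

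Because FPKM divides by gene length, it allows the members to be ordered roughly within a group. That length is all annotated exonic bases of a gene, from 3001 for MYC to 17651 for MGA. A gene whose transcripts use only part of these bases reads too low, and which exons were in use was not measured. With vehicle, MYC at 77.9 ± 1.14 FPKM (SD, n = 3) was followed by MLX at 22.5 ± 1.03, MAX at 11.97 ± 0.395 and MXD4 at 7.58 ± 0.389. MLXIP, MXD3, MXI1, MGA, MXD1 and MNT followed with means from 5.91 down to 1.85. MXD3 and MXI1 were the only neighbours in this order whose samples overlapped. With SCH, MYC still led at 48.5 ± 4.75 FPKM, but MXD4 at 18.9 ± 0.503 came next and MLX at 17.8 ± 0.182 after it. These neighbours differed by a ratio of 1.06, and MLX shares exonic bases with PSMC3IP, so their order is uncertain. MXD1 moved from the ninth to the sixth place, and MXD3 and MGA were the only neighbours that overlapped.

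The antagonists can be added up to describe how the network was composed. The summed level of MXD1, MXD3, MXD4, MXI1 and MNT was 20.33, 19.6 and 19.8 FPKM with vehicle and 35.9, 33.4 and 35.2 with SCH. MYC was 3.86, 4.02 and 3.86 times this sum with vehicle and 1.33, 1.602 and 1.25 times with SCH, so the samples of the groups did not overlap. Without MXD3, whose reads are uncertain, the mean ratio was 4.89 with vehicle and 1.58 with SCH. MXD4 made up 38.04% ± 1.58 of the sum with vehicle and 54.3% ± 1.35 with SCH (SD, n = 3). The ratio of MYC to MAX was 6.51 ± 0.304 with vehicle and 4.21 ± 0.494 with SCH (SD, n = 3). These ratios are of transcripts and give no protein level, and their size depends on the exonic lengths used, which are the same in both groups. The ratios follow from the changes above, so no test was added.

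**Figure D3:**
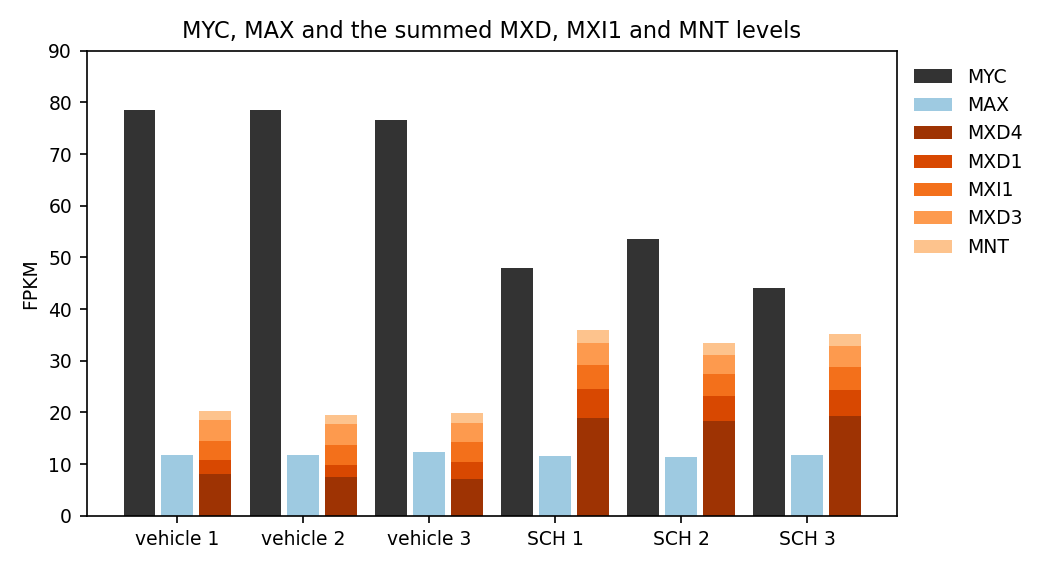
FPKM of MYC, of MAX and of the stacked repressors MXD4, MXD1, MXI1, MXD3 and MNT in each of the 6 samples, on an axis that starts at 0. The stacks stand between 19.6 and 20.33 with vehicle and between 33.4 and 35.9 with SCH, while the MYC bar falls and the MAX bar stays between 11.3 and 12.4.

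In the parallel branch, MLX (ENSG00000108788, chromosome 17, 42567068 to 42573239, plus strand) had 102, 102 and 94.05 CPM with vehicle and 78.6, 77.3 and 78.7 with SCH. The SCH-treated samples were close together and below every vehicle-treated sample. MLX fell by 0.34 on the log2 scale (SE 0.055, adjusted p = 9.75e-06, edgeR). Of the exonic bases of MLX, 18.1% are shared with PSMC3IP on the other strand.

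MLXIP (ENSG00000175727, chromosome 12, 122078722 to 122147347, plus strand), the glucose-sensing partner of MLX, had 83.2, 86.7 and 84.8 CPM with vehicle and 101, 93.9 and 90.2 with SCH. The groups were apart by a small gap, with SCH replicate 1 the highest. The difference was 0.16 on the log2 scale (SE 0.056, adjusted p = 0.0161, edgeR). This call was lost without SCH replicate 1 (0.12, adjusted p = 0.0852 in edgeR), without vehicle replicate 1 (0.15, adjusted p = 0.0667) and under 3 other settings, and the adjusted p lay between 0.000307 and 0.0852. MLXIPL (ChREBP), the liver and fat relative of MLXIP, had 2 to 11 counts per sample and was not tested.

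The known targets of MLXIP and MLX mostly rose. Of 6 listed targets, 4 rose and 1 fell, against 29.3% of all tested genes raised and 29.4% lowered, and the median of their log2 fold changes was 0.38. TXNIP, which restrains glucose uptake, had 197, 195 and 198 CPM with vehicle and 338, 353 and 362 with SCH, with a log2 fold change of 0.83 (SE 0.047, adjusted p = 6.38e-13, edgeR). Its arrestin-domain relative ARRDC4, whose promoter window is printed above, had 7.27, 7.45 and 7.92 CPM with vehicle and 13.1, 14.5 and 15.1 with SCH (0.92, SE 0.11, adjusted p = 1.43e-07). Both genes had groups that were far apart. The regulator of glycolysis PFKFB3 rose by 0.39 and the transcription factor KLF10 by 0.38 on the log2 scale. Lactate dehydrogenase LDHA, which is also on the list of MYC targets, fell by 0.64, and hexokinase HK2 (-0.11, adjusted p = 0.0714, edgeR) did not pass. HK2 passed only with upper quartile scaling, at -0.14, and its adjusted p lay between 0.0228 and 0.891 over the settings. CACGTG was found in 4 of the 5 of these genes that have a window, and not in those of TXNIP. A consensus of the carbohydrate response element, a pair of E-box-like letters searched on both strands, was found in 0 of these 5 genes and in 0.0883% of all windows, which says only that those letters are not in these windows. These genes are known as targets of a pair that binds such motifs, so this share is no separate evidence.

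MGA (ENSG00000174197, chromosome 15, 41621224 to 41773081, plus strand), the Polycomb-linked MAX partner, had 65.4, 65.7 and 66.9 CPM with vehicle and 66.7, 70.3 and 69.2 with SCH. The groups overlapped, and the log2 fold change of 0.058 (SE 0.056, adjusted p = 0.390, edgeR) passed the test only with library size scaling, at 0.16. Of 10 other subunits of its complex, 2 were raised and 3 were lowered, no larger a share than the 58.7% of all tested genes that changed. The ubiquitin ligase subunit RING1 rose by 0.53 and its binding partner RYBP by 0.43, while heterochromatin protein CBX3 fell by 0.50, the adaptor WDR5 by 0.47 and the E2F partner TFDP1 by 0.43 on the log2 scale. PCGF6, the subunit that sets this complex apart from other Polycomb complexes, had a log2 fold change of 0.05 (SE 0.071, adjusted p = 0.556, edgeR). Among 15 germline genes that the complex is known to silence, 10 were too low to test, and TDRKH rose by 0.99 as the 1 call among the other 5.

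Genes known to be induced by MYC were mostly lower after SCH. Of 50 such genes, written down from general knowledge, 43 were lowered and 2 raised by edgeR's test, against 29.4% and 29.3% of all tested genes. The groups did not overlap in 46 of the 50, against 62.4% of all tested genes. The median log2 fold change of the 50 genes was -0.57. With the 40 genes that share under 10% of their exonic bases with another gene, 35 were lowered, 2 were raised and the median was again -0.57. CACGTG was found in 18 of the 41 of these genes with a window (43.9%), but many genes are known as MYC targets through this motif, so the share is no separate evidence. Lower transcripts of these genes and lower MYC were measured in the same 6 samples, and whether the one led to the other was not tested.

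Among genes for the nucleolus and ribosome production, 16 of 16 were lowered, against 29.4% of all tested genes, and the median of their log2 fold changes was -0.67. The grouping of targets by role was made after their values were seen. NPM1, a chaperone of the nucleolus, had a mean of 478 FPKM with vehicle and 280 with SCH, a log2 fold change of -0.78 (SE 0.048, adjusted p = 3.08e-12, edgeR). Nucleolin (NCL) fell by 0.60, and the ribosome assembly factors NOP16, RRS1 and MRTO4 fell by 1.29, 1.19 and 0.80 on the log2 scale. NOP16 shares 19.95% of its exonic bases with ARL10 and HIGD2A.

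Metabolic targets were mostly lower too. Of 10 genes for polyamine, nucleotide and folate synthesis, 9 were lowered, against 29.4% of all tested genes. CAD, which starts pyrimidine synthesis, fell by 0.57 on the log2 scale. The other was ornithine decarboxylase ODC1, the first enzyme of polyamine synthesis and a textbook MYC target, which rose from a mean of 196 to 230 FPKM with a log2 fold change of 0.23 (SE 0.046, adjusted p = 0.000186, edgeR). Among genes for amino acid and iron uptake and use, the transferrin receptor TFRC fell by 0.98 and the branched-chain transaminase BCAT1 by 1.20 on the log2 scale. Of the 4 glycolysis genes 3 were lowered, and all 4 genes for mitochondrial proteins were, against 29.4% of all tested genes. Among the latter 4 was the chaperonin HSPE1 at -0.84, although it shares 23.9% of its exonic bases with HSPD1 and HSPE1-MOB4.

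Of the 6 genes on this list grouped as cell cycle and immortality, 3 were lowered, the telomerase gene among them. Of all tested genes, 58.7% changed in either direction and 29.4% were lowered. E2F1 (-0.04), CDC25A (-0.06) and CCND2 (0.15) did not pass the test. The sign of E2F1 and CDC25A turned with library size scaling, and that of CCND2 turned without vehicle replicate 2 (-0.027) or SCH replicate 2 (-0.19). Of the 3 translation factors, 2 were lowered, against the same 29.4% of all tested genes. The third, EIF4A1 (0.32), did not pass, although it did without vehicle replicate 1 (0.53) or SCH replicate 3 (0.48). Without vehicle replicate 3 its value was 0.17, and without SCH replicate 1 it was 0.21. EIF4A1 shares 48.6% of its exonic bases with other genes.

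**Figure D4:**
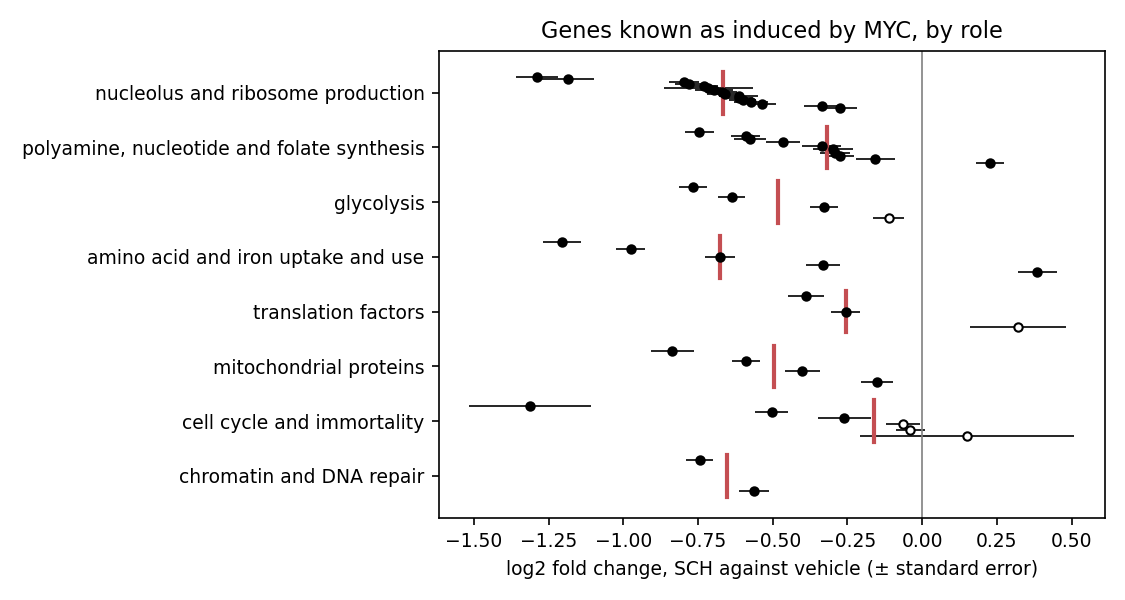
Log2 fold change, SCH against vehicle, of the 50 genes known as induced by MYC, in rows by role, with bars of 1 standard error. Filled points passed the adjusted threshold of 0.05, open points did not, and each red line is the median of its row, which lies below 0 in every row.

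Genes known to be repressed by MYC were mostly higher. Of 15 listed, 11 were tested, of which 8 rose and 1 fell, against 29.3% of all tested genes raised and 29.4% lowered. The median of their log2 fold changes was 0.82, and it was 0.51 with limma on log2(FPKM + 1). The cyclin-dependent kinase inhibitor CDKN1A, which is also a target of p53, went from a mean of 32.8 to 167 FPKM (2.34, SE 0.055, adjusted p = 1.52e-19, edgeR). The secreted chaperone CLU rose by 2.42, NDRG1 by 1.45, the kinase inhibitor CDKN1C by 0.93 and the stress gene GADD45A by 0.82 on the log2 scale. Thrombospondin THBS1, an inhibitor of vessel growth, was the exception and fell by 1.07. Other regulators also act on these genes, and their part in the rises was not tested.

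Of 18 cofactors of MYC, 4 were raised and 7 lowered, so that 61.1% changed, which is near the 58.7% of all tested genes. Their median was -0.05, with library size scaling 0.054, without vehicle replicate 2 -0.023, without SCH replicate 2 -0.022 and without SCH replicate 3 -0.026. The helicases RUVBL1 and RUVBL2 fell by 0.73 and 0.55 on the log2 scale, and the MYC-binding repressor partner ZBTB17 (MIZ1) rose by 0.42. With library size scaling the split of the cofactors was 7 raised and 4 lowered, and without vehicle replicate 2 or without SCH replicate 2 it was 4 and 4. Of 18 subunits and partners of the SIN3 corepressor, which the MXD proteins recruit, 10 were raised and 4 lowered. The shares of all tested genes were 29.3% and 29.4%, and the median of the 18 genes was 0.20. SIN3A rose by 0.26, and ARID4A, ARID4B, ING1 and ING2 rose by 0.53 to 0.60. The histone-binding subunit RBBP4 fell by 0.76 and the deacetylase HDAC2 by 0.36. With library size scaling this split was 13 and 2, and without vehicle replicate 1 it was 9 and 2.

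Genes acting on the MYC protein or transcript were described as well. Of 19 genes for the stability of the MYC protein, 4 were raised and 7 lowered, and their share of 57.9% changed is near the 58.7% of all tested genes. Their median was -0.055, and with library size scaling it turned to 0.049 and the split to 6 and 5. Without vehicle replicate 2, and with DESeq2, the split was 2 raised and 6 lowered, and with limma it was 2 and 7. Without vehicle replicate 3 it was 4 and 9, and the median was -0.13, while without vehicle replicate 2 it was -0.033 and without SCH replicate 2 -0.024. The mitotic kinases PLK1 and AURKA, which can shield MYC from degradation, fell by 1.93 and 1.66 on the log2 scale, and the ubiquitin ligase subunit SKP2 fell by 0.93. The phosphatase subunit PPP2R5A, which favours MYC breakdown, rose by 0.57. FBXW7, the best known ubiquitin ligase for MYC, had a log2 fold change of -0.03 (SE 0.085, adjusted p = 0.758, edgeR), which turned to 0.070 with library size scaling and also without vehicle replicate 1.

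Of 22 listed regulators of the MYC transcript, 19 were tested, and 3 were raised and 13 lowered, against 29.3% and 29.4% of all tested genes, with a median of -0.34. ZFP36, which speeds the decay of AU-rich transcripts, rose by 1.22 on the log2 scale, while HNRNPD, which binds the same kind of element, fell by 0.80. The activators FUBP1 and NME2 fell by 0.57 and 0.86, and NME1 fell by 0.63. Both NME genes, however, share exonic bases with the readthrough gene NME1-NME2. The long noncoding RNA PVT1, a neighbour of MYC, fell by 0.57 (SE 0.096, adjusted p = 2.09e-05, edgeR).

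Marker genes were checked against the labelled line. The mesenchymal gene VIM, the surface proteins CD44, EGFR and AXL and the epithelial keratins KRT8 and KRT18 were present in every sample, from a mean of 35.7 to 293 FPKM. Of these, 5 were lowered by SCH, against 29.4% of all tested genes, the largest fall being that of AXL by 0.84 on the log2 scale. Estrogen receptor ESR1 had 1 to 4 counts per sample, progesterone receptor PGR 0 or 1, and E-cadherin CDH1 1 to 6. ERBB2 was detected, at a mean of 6.67 FPKM with vehicle and 8.22 with SCH, and was raised (0.29 on the log2 scale, adjusted p = 0.000164, edgeR). The epithelial gene EPCAM and the luminal factor GATA3 were also detected. EPCAM went from a mean of 6.53 to 4.59 FPKM (-0.52 on the log2 scale) and GATA3 from 3.84 to 2.24 FPKM (-0.79), and both were lowered by SCH in edgeR's test. The 6 markers of blood and vessel cells summed to 3.58, 4.73 and 3.42 CPM with vehicle and to 2.18, 2.73 and 2.57 with SCH, and HBB and CD3E had at most 1 count in any sample. The leukocyte gene PTPRC, the most abundant of these with vehicle, had 39, 37 and 34 counts there and 4, 9 and 3 with SCH.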

How the data were processed

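Libraries of poly-T selected mRNA from 6 cultures were sequenced by Novogene on an Illumina HiSeq. Gene counts, not normalized, were deposited by the authors in 1 table of all samples. The authors also deposited FPKM for each gene and sample. The submitters' processing notes name CASAVA 1.8, HISAT2 2.0.5, featureCounts 1.5.0-p3, DESeq2 1.20.0 and GRCh38. The strand setting of the counting is not given in the sources used here. All 58735 genes of the table have the identifier, start and end of GENCODE release 29.

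The counts were fitted with edgeR 4.0.16 in R 4.3.3 (filterByExpr, TMM, the quasi-likelihood test, SCH against vehicle, no covariates) over 14736 genes, and an adjusted p (Benjamini-Hochberg) under 0.05 was called changed. Each standard error was derived from the log2 fold change and its F statistic (absolute value over the root of F). FPKM served for levels between genes, for some group means and for limma. The biological coefficient of variation was 5.17%. The floor of 3 counts covers counting error only. Scripts were tested on simulated data. Alternatives were RLE, upper quartile and library size scaling, no filter, a minimum of 10 counts in each sample, DESeq2 1.42.0, limma 3.58.1 on log2(FPKM + 1) and on log2(FPKM + 0.1), a replicate block, and each replicate left out.

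The network members, the gene lists and the tests were chosen with earlier results of these data known. Lists came from general knowledge, and LDHA, HK2, SKP2 and WDR5 stand in more than 1. Named are all members, MYCN, MYCL and MLXIPL, up to 6 genes per list with the largest change among those past the threshold, a mean count of 100 or more and groups that are apart, and a few fixed genes (CDKN1A, TXNIP, ARRDC4, ODC1, CAD, LDHA, NCL, NPM1, SIN3A, PCGF6, FBXW7 and PVT1). HK2, E2F1, CDC25A, CCND2, EIF4A1, telomerase and the unchanged or scarce markers were named after their values were seen. Some genes of the lists are counted but not reported here by name. Python 3.11.15 was used for tables and figures.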

Additional observations from a re-analysis of the deposited data

How the results depend on the processing

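Of 83 genes, those chosen by the rule for naming and 6 others named in the text, 71 had the same sign and the same call under all 15 settings (14 for MYCL). The other 12 were MAX, MGA, MXD3, MLXIP, MXI1, FBXW7, HK2, USF1, E2F1, CDC25A, CCND2 and EIF4A1. The log2 fold change of MAX turned to 0.042 and that of FBXW7 to 0.070 with library size only, as did that of E2F1 to 0.064 and of CDC25A to 0.038, and FBXW7 was also at 0.070 without vehicle replicate 1. That of MXD3 turned to -0.023 with upper quartile scaling, to -0.033 without vehicle replicate 3 and to -0.0051 without SCH replicate 1, and the fits with a replicate left out reached up to 0.055 for MXD3 and down to -0.11 for FBXW7. With a replicate left out, that of CCND2 lay between -0.19 and 0.43 and was -0.027 without vehicle replicate 2. EIF4A1 passed without vehicle replicate 1 (0.53), without SCH replicate 3 (0.48), with library size only (0.42), without a filter (0.34) and with the replicate block (0.33). Its log2 fold change was lower without vehicle replicate 3 (0.17) and without SCH replicate 1 (0.21), where it did not pass. MGA passed with library size only (0.16, adjusted p = 0.0169, edgeR). Besides the samples named above, MLXIP was lost with upper quartile scaling (0.13, adjusted p = 0.0501) and with limma on log2(FPKM + 1) (0.15, adjusted p = 0.0591) and log2(FPKM + 0.1) (0.17, adjusted p = 0.0555). The median of the MYC-induced targets was -0.46 with library size only, -0.60 with upper quartile scaling and -0.53 with limma on log2(FPKM + 1). It lay between -0.56 and -0.53 with each replicate left out, when 42 to 45 of these targets changed, 5 to 7 members changed (5 without vehicle replicate 1) and 7809 to 8489 genes changed. Library size only moved the median of all tested genes to 0.099 and the calls to 5519 raised and 3295 lowered, from 4318 and 4332. With at least 10 counts in every sample, MYCL was not tested. The replicate numbers did not pair the samples, since deviations of equally numbered samples correlated at 0.046, -0.022 and 0.022, and not every sample correlated best with its own number. With the replicate number as a block, 8705 genes and 7 members changed. The precision for MYCL, with few counts, is limited by depth.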

Other observations

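Of 13 other factors that bind the same E-box, 12 were tested, and 3 were raised and 4 lowered by edgeR's test. Their share of 58.3% changed is near the 58.7% of all tested genes. Their median log2 fold change was 0.025, and it was -0.0075 with upper quartile scaling and -0.011 without vehicle replicate 2. This median was higher with library size scaling (0.13) and without SCH replicate 1 (0.043). The repressors BHLHE40 and BHLHE41, which also act in the circadian clock, rose by 0.78 and 0.40 on the log2 scale. USF1 rose by 0.20, a call that was lost without SCH replicate 2 (0.17, adjusted p = 0.0596 in edgeR, from 0.000296 to 0.0596 over the settings), and was named after its value was seen, while USF2 fell by 0.34. The sterol regulators SREBF1 and SREBF2 fell by 0.38 and 0.47, and the clock gene NPAS2 fell by 0.87. With library size scaling the split was 6 raised and 4 lowered.

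The genes whose log2 CPM followed MYC most closely over the 6 samples were PHLDA1, ID1, SLC22A3, PLK2 and the pseudogene AC018638.5, with Pearson's r from 0.997 to 1.00 among 10713 genes of mean count 100 or more. The samples fall into 2 groups that differ in most genes, and 2239 genes had an r above 0.9, so this order rests largely on the difference between the groups and is a description only.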
